A study of Mus musculus with 30 samples.

Results

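The genes described here are those with which a cell shows peptides on MHC class II molecules. They were chosen by name: 10 gene symbols were looked up in the annotation of the array, and 9 of them were found, each in 1 transcript cluster, among 19479 genes with a symbol. The 9 are the classical chains H2-Aa, H2-Ab1 and H2-Eb1, the peptide-loading genes H2-DMa, H2-DMb1, H2-DMb2, H2-Oa and H2-Ob, and the transactivator Ciita. Cd74, the invariant chain, was the tenth and was not analysed here.

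The study measured RNA of 3 kinds of myeloid cells, purified from the injured side of the brain of TREM1-/- (KO) and TREM1+/+ (WT) male C57BL/6 mice aged 8 to 10 weeks. TREM1 is a receptor of myeloid cells that amplifies inflammatory signalling. All mice, WT included, had the middle cerebral artery closed for 45 min, a model of stroke, and cells were taken 48 h after blood flow returned, so no group is free of injury. The groups were KO neutrophils (5 arrays) and WT neutrophils (4 arrays), KO macrophages (6) and WT macrophages (3), and KO microglia (6) and WT microglia (6), each array a biological replicate per the labels. The sort took CD11b positive cells with high CD45, as neutrophils where Ly6G was present and as macrophages where it was not. Microglia were the CD11b positive cells with low CD45, a gate that the labels also describe as Ly6G positive. Neither the deleted part of Trem1 nor the number of mice in a sort is stated in the labels.

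An MHC class II molecule is a pair of an alpha and a beta chain that carries a peptide from the endosome to the cell surface, where CD4 T cells read it. In the endosome the H2-M heterodimer, encoded by H2-DMa with H2-DMb1 or H2-DMb2, takes the remnant of the invariant chain out of the groove and lets peptides in. H2-O, encoded by H2-Oa and H2-Ob, holds H2-M back. Ciita is the factor that switches these genes on, through proteins bound to a pair of promoter elements called the X box and the Y box, and interferon gamma is its best known inducer. In the inflamed brain, class II molecules are known from dendritic cells, from macrophages of the borders and the blood, and from activated microglia, while neutrophils are not counted among the professional presenting cells.

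Values are log2 of the deposited intensities, so a difference of 1 is a doubling, and differences are called at a Benjamini-Hochberg adjusted p under 0.05 in a limma fit to all 22103 clusters and all 30 arrays. Levels of different genes cannot be set against each other, since each has its own probes. No background was given per array, and the median of all cluster means, 6.69, serves as a mark below which a level was not shown to be above background and a fold is approximate. In bulk samples fewer cells of a type and less RNA per cell cannot be told apart. By group means, all 10 monocyte and macrophage markers were above the mark in macrophages, but also in neutrophils, and 5 of them in microglia. All 9 measured homeostatic microglia markers were above it in microglia, and 7 in macrophages and in neutrophils. Of 9 measured neutrophil markers 8 (KO) or 9 (WT) were above it in neutrophils, 6 in macrophages, and 5 (KO) or 3 (WT) in microglia. A set of 2015 clusters, called broadly expressed here, was picked by levels in macrophages and microglia only. Its clusters were at or above 11 in every array of these cells, with WT means less than 1 apart. The median level of the set was 12.85 to 13.21 in KO and 12.42 to 12.91 in WT neutrophils, against 13.26 to 13.49 in the other 4 groups. A lower level in neutrophils follows at least in part from this rule, and broad expression in neutrophils was not required. KO microglia 2 had a mean of 9.74 over the neutrophil markers, and the microglia group means of that list were 7.40 in KO and 6.53 in WT. Trem1 itself was at 15.12 to 16.39 in KO and 16.82 to 17.51 in WT neutrophils (difference -1.22, SE 0.41, limma adjusted p = 0.0361). It was at 12.81 to 14.39 in KO and 13.59 to 14.19 in WT macrophages (-0.49, adjusted p = 0.998), and at 7.50 to 9.21 in KO and 7.62 to 10.44 in WT microglia (-1.25, adjusted p = 1), and probes outside a deletion would not test the genotype.

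All the genes but Ciita, which is on chromosome 16, lie together on chromosome 17 in the GRCm38.p6 annotation of RefSeq. H2-Oa spans chr17:34092379-34095234 and H2-Eb1, at the other end, chr17:34305867-34316674, with H2-DMa, H2-DMb2, H2-DMb1, H2-Ob, H2-Ab1 and H2-Aa between them. Ciita spans chr16:10480014-10531064. RefSeq promoters, from 250 bases before to 50 after the start, were found for 7 of the 9 genes, not for H2-Ab1 and Ciita. The letters of a Y box, TGATTGG, were searched on both strands and stood in 6 of these 7 genes, against 7.82% of all 32851 promoters, and began 45 to 92 bases before the start. The letters AGNAAC, taken here for the core of an X box, are common and stood in 48.1% of all promoters on either strand. AGNAAC followed on the same strand by TGATTGG with 20 to 40 bases between their first letters stood in 29 promoters, 0.0883% of all, and 4 of the 7 genes had it. The letters were chosen with class II promoters in mind, and a match is a description and not a bound site. The 2 H2-DMa promoters held no TGATTGG, and 1 of them held AGNAAC, on the opposite strand only. The 60 bases around TGATTGG are shown because these letters occur in 2 classical and 4 loading genes, whose levels differed in the cells below. AGNAAC is not in the stretches of H2-Aa and H2-DMb2. Each is read on the strand of its gene, with TGATTGG and any AGNAAC in capitals.
H2-Eb1, chr17:34305761-34305820, plus strand: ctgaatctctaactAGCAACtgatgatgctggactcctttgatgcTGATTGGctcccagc
H2-Aa, chr17:34287859-34287918, minus strand: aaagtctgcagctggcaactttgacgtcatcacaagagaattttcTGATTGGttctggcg
H2-DMb1, chr17:34153083-34153142, plus strand: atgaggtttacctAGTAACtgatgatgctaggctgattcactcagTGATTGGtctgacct
H2-DMb2, chr17:34145112-34145171, plus strand: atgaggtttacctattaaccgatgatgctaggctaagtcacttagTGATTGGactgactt
H2-Oa, chr17:34092289-34092348, plus strand: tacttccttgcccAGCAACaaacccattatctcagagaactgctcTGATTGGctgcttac
H2-Ob, chr17:34238801-34238860, plus strand: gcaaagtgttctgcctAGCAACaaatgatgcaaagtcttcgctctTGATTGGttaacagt
In the 4 genes with both, the first letters were 29 bases apart in H2-Ob, 31 in H2-Eb1 and 32 in H2-DMb1 and H2-Oa. Over an alignment of 345 columns the promoters of H2-DMb1 and H2-DMb2 were 62.3% identical. The 2 genes are close copies, the files do not say how far the probes tell them apart, and their values below are uncertain to that degree.

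Macrophages held the highest levels of the classical chains by a wide margin. H2-Aa, the alpha chain of I-A, was at 14.42, 14.03 and 14.68 in the 3 WT macrophage arrays, against 7.03 to 7.72 with a median of 7.38 in WT microglia. H2-Ab1, its beta chain, was at 16.23, 15.86 and 16.61 in WT macrophages, against 6.45 to 7.61 with a median of 6.70 in WT microglia. H2-Eb1, the gene for the beta chain of I-E, was at 16.45, 16.19 and 16.73 in WT macrophages, against 5.85 to 6.30 with a median of 6.07 in WT microglia. This is RNA of the beta chain alone, and I-E protein was not measured. No macrophage array came near any microglia array in these 3 genes, and the H2-Eb1 levels of microglia lay under the mark of 6.69. The differences, macrophages minus microglia, were 6.97 for H2-Aa (SE 0.35, adjusted p = 1.07e-15), 9.33 for H2-Ab1 (SE 0.51, adjusted p = 9.63e-15) and 10.39 for H2-Eb1 (SE 0.61, adjusted p = 4.67e-14). On the intensity scale these are 125-fold and, approximately, 645-fold and 1337-fold, since 3 of the 6 WT microglia arrays lay under the mark in H2-Ab1 and all 6 in H2-Eb1. In KO mice the same differences were 6.93, 9.01 and 9.84.

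The loading genes differed less between these cells, since microglia also held H2-DMa and H2-DMb1 at high levels. H2-DMa was at 14.95, 14.88 and 15.01 in WT macrophages, against 12.73 to 13.89 with a median of 13.42 in WT microglia. The groups did not overlap, yet the difference was 1.54 (SE 0.37, adjusted p = 0.0017), a 2.91-fold excess in macrophages. H2-DMb1 was at 15.99, 15.63 and 15.85 in WT macrophages, against 14.49 to 15.26 with a median of 15.04 in WT microglia. Its difference of 0.88 did not pass (95% interval -0.0023 to 1.77, adjusted p = 0.11), though the groups did not overlap. It passed when each array was centred on its median (1.29, adjusted p = 0.0253) and in a fit to only the arrays compared (adjusted p = 0.00729). The copy H2-DMb2 was higher in macrophages by 2.79 (SE 0.37, adjusted p = 6.2e-07), at 12.43 to 13.79 against 10.00 to 10.73 in microglia. H2-Oa, the alpha chain of the H2-O regulator, was higher by 1.74 (SE 0.43, adjusted p = 0.00188).

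H2-Ob, the partner chain of H2-O, was the gene of the 9 that macrophages did not hold at a higher mean than microglia. It was at 8.42, 7.23 and 8.79 in WT macrophages, against 7.37 to 9.002 with a median of 8.44 in WT microglia, and the groups overlapped (difference -0.16, adjusted p = 0.759). In KO mice H2-Ob was lower in macrophages, at 7.37 to 8.31, against 7.85 to 9.64 in microglia, by 0.91 on the log2 scale (difference -0.91, SE 0.31, adjusted p = 0.0161). That call was lost without KO microglia 2 (-0.71, adjusted p = 0.0575), without KO microglia 3 (-0.74, adjusted p = 0.0543), with quantile normalization (-0.51, adjusted p = 0.184) and with centring (-0.55, adjusted p = 0.152). Ciita was at 8.83, 7.99 and 8.38 in WT macrophages, against 5.32 to 6.11 with a median of 5.59 in WT microglia. Every macrophage array lay above every microglia array, by 2.79 in the means (SE 0.21, adjusted p = 1.33e-11), and the microglia levels lay under the mark. In all, 7 of the 9 genes passed between WT macrophages and WT microglia, all higher in macrophages, where 37.5% of all clusters passed in either direction. In KO cells 8 of 9 passed, 7 higher and H2-Ob lower in macrophages, where 43.3% of all clusters did.

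**Figure D1:**
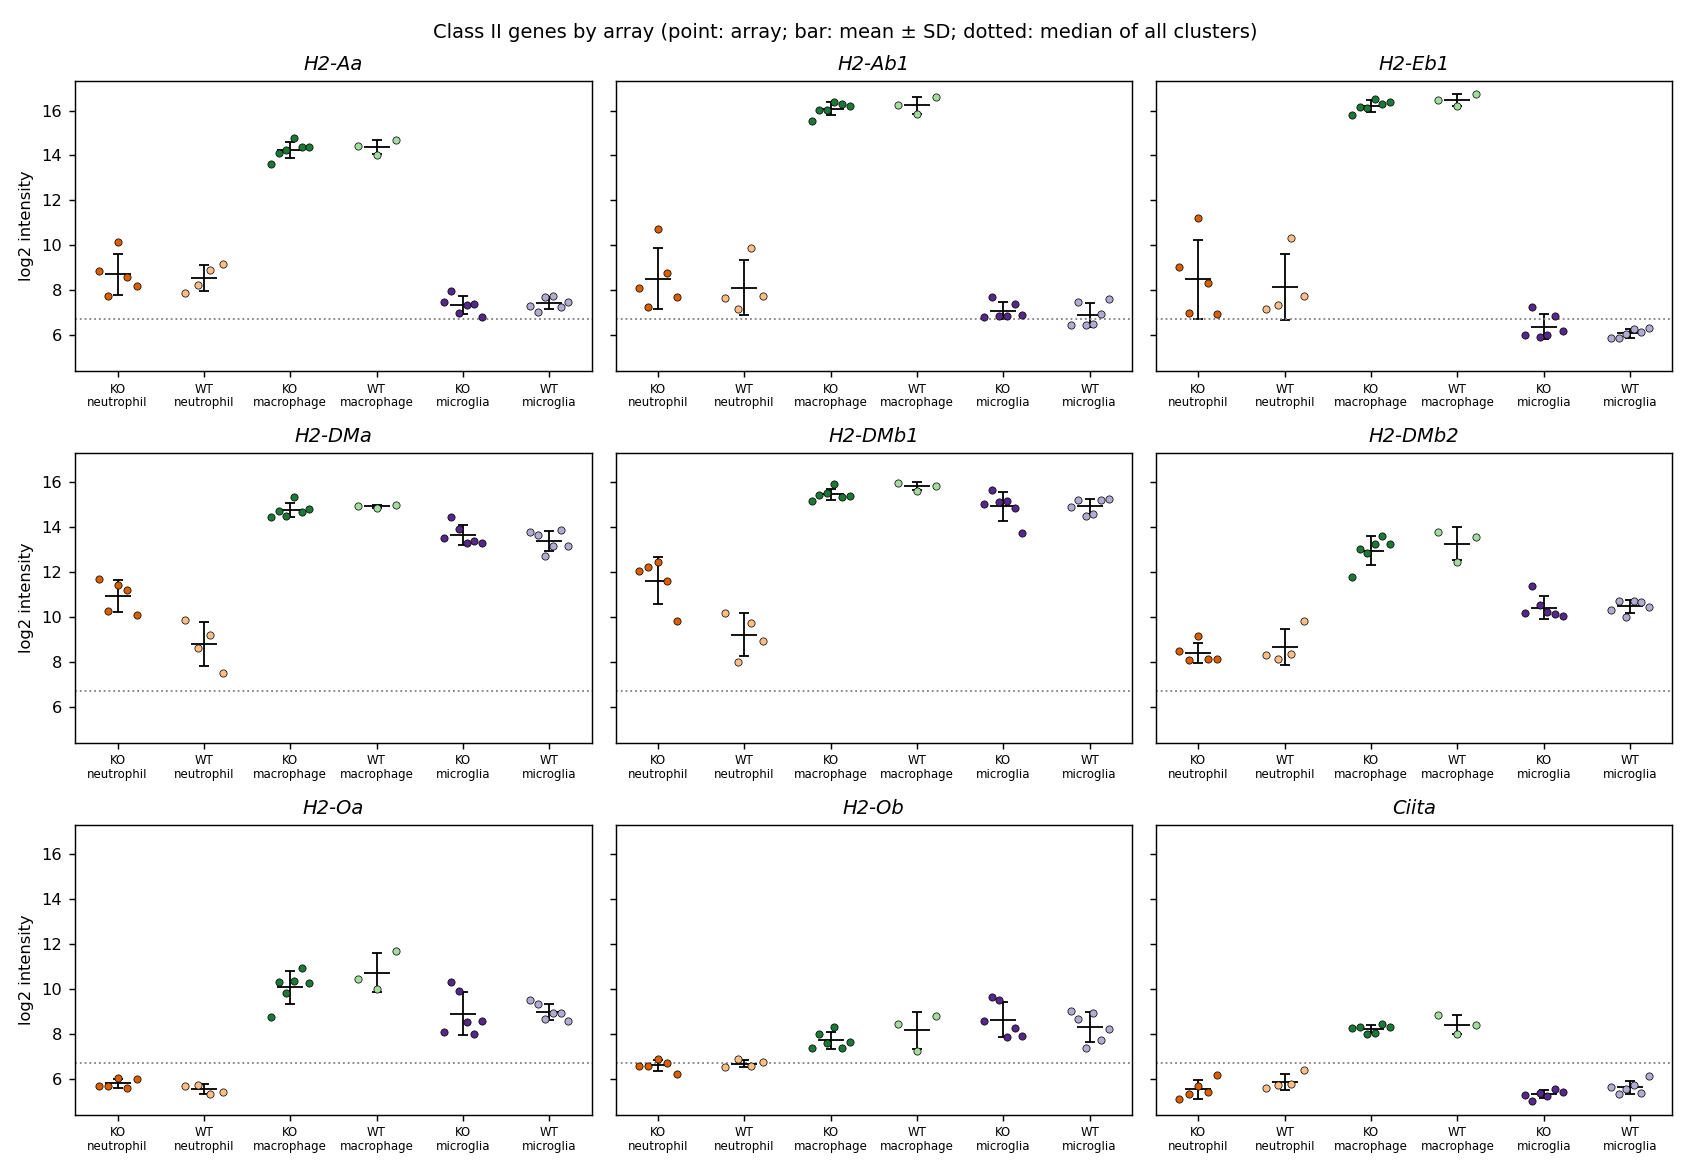
Log2 intensity of the 9 genes (1 panel each) in every array of the 6 groups, KO left of WT, with points for arrays, bars for mean ± SD and a dotted line at 6.69, the median of all cluster means. The 3 classical chains are high in macrophages alone, H2-DMa and H2-DMb1 are high in macrophages and microglia, and in neutrophils these 2 genes are higher in KO than in WT.

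The contrast can be read within an array as the mean of H2-DMa and H2-DMb1 minus the mean of the 3 classical chains, which has no meaning as a ratio of transcripts but can be followed from group to group. It was 6.90 to 7.96 in KO microglia and 6.88 to 7.80 in WT microglia. It was -0.63 to -0.17 in KO macrophages and -0.58 to -0.11 in WT macrophages. Neutrophils lay between, at 1.24 to 3.94 in KO and -0.22 to 2.48 in WT. The microglia arrays stood above all others, and of the other arrays only WT neutrophil 3 reached down into the macrophage range.

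**Figure D2:**
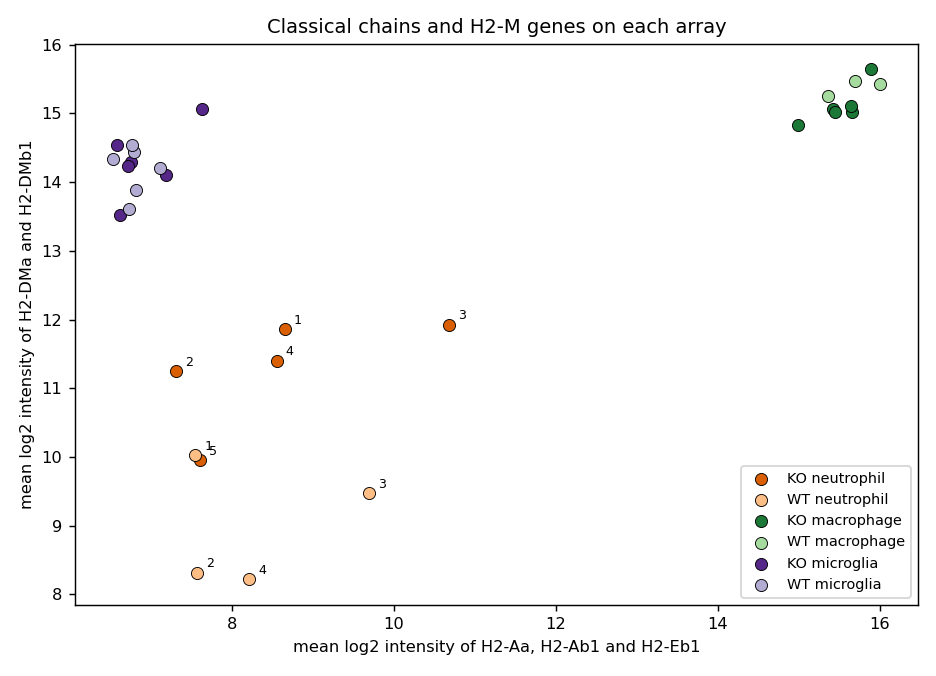
Each point is an array, with the mean log2 intensity of H2-Aa, H2-Ab1 and H2-Eb1 on the horizontal axis and that of H2-DMa and H2-DMb1 on the vertical axis, and numbers mark the neutrophil replicates. Microglia lie at 6.54 to 7.64 on the horizontal axis and 13.52 to 15.07 on the vertical, macrophages are high on both, and the KO neutrophils lie higher on the vertical axis than the WT neutrophils, except that KO neutrophil 5 lies beside WT neutrophil 1.

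Of 10 markers of dendritic cells 6 were higher and 2 lower in macrophages than in microglia, in KO and in WT, where 43.3% and 37.5% of all clusters passed. The 2 lower were Batf3 (-2.08 in KO, -1.97 in WT) and Zbtb46 (-0.38 in KO, -0.44 in WT). Cd209a, a lectin of monocyte-derived dendritic cells, averaged 11.76 in KO and 12.27 in WT macrophages, against 5.61 in KO and 5.68 in WT microglia. Itgax averaged 10.42 in KO and 11.20 in WT macrophages and 7.75 in KO and 7.69 in WT microglia, and Ccr7 averaged 11.62 in KO and 11.64 in WT macrophages and 9.78 in KO and 9.96 in WT microglia. Xcr1, Clec9a and Zbtb46, markers of conventional dendritic cells, averaged 4.59 to 5.31 in the macrophage groups, under the mark; these 3, Batf3 and Itgax were picked from the list after their values were seen. The whole list of 10 had a mean of 7.22 to 7.77 in KO and 7.38 to 7.95 in WT macrophage arrays, against 6.02 to 6.39 in KO and 6.04 to 6.46 in WT microglia arrays, and 5 of the 10 were above the mark in macrophages. The gate of the macrophages does not remove CD11b positive dendritic cells, and their part in the class II levels was not tested. B cell markers gave a list mean of 5.12 to 5.44 in KO and 5.18 to 5.32 in WT macrophage arrays, with 1 and 0 of the 6 measured above the mark.

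Neutrophils held less than macrophages of all 9 genes. In WT the difference, macrophages minus neutrophils, was 5.84 for H2-Aa, 8.12 for H2-Ab1 and 8.33 for H2-Eb1. It was 6.14 for H2-DMa, 6.61 for H2-DMb1, 4.61 for H2-DMb2 and 5.19 for H2-Oa, and it was 1.48 for H2-Ob (SE 0.40, adjusted p = 0.00328) and 2.54 for Ciita. All 9 passed, and no array of 1 group reached the other, where 51.6% of all clusters passed in either direction. In KO mice all 9 passed as well, where 31.7% of all clusters did, with 7.58 for H2-Ab1, 3.83 for H2-DMa and 3.84 for H2-DMb1. The H2-Ob calls ended with the median of the broadly expressed clusters as a covariate, in WT (1.38, adjusted p = 0.297) and in KO (1.07, adjusted p = 0.0786).

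Between neutrophils and microglia the classical chains and the loading genes ran in opposite directions. In WT, neutrophils were higher in H2-Aa by 1.13 (SE 0.32, adjusted p = 0.00353), in H2-Ab1 by 1.21 (SE 0.47, adjusted p = 0.0295) and in H2-Eb1 by 2.05 (SE 0.56, adjusted p = 0.00272). They were lower in all 5 loading genes, with differences of -4.60 for H2-DMa (SE 0.34, adjusted p = 3.22e-12), -5.73 for H2-DMb1 (SE 0.40, adjusted p = 6.93e-13), -1.82 for H2-DMb2, -3.44 for H2-Oa and -1.65 for H2-Ob. H2-Oa in neutrophils and H2-Eb1 in most microglia arrays lay under the mark. H2-Ob averaged 6.67 in WT and 6.58 in KO neutrophils, just under it. H2-Ab1 in WT microglia, at 6.45 to 7.61, lay on both sides of it. So 8 of 9 passed, 3 higher and 5 lower, where 54.3% of all clusters passed. Ciita did not (0.24, adjusted p = 0.302) and was under the mark in every neutrophil and microglia array. In KO cells the same 8 of 9 passed in the same directions, where 45% of all clusters did. With the median of the broadly expressed clusters as a covariate the excess of WT neutrophils passed in none of the classical chains (0.93 for H2-Aa, 2.28 for H2-Ab1 and 3.08 for H2-Eb1, adjusted p = 0.0544 to 0.336), and H2-Ob did not pass either (-1.55, adjusted p = 0.122), while in KO cells all 8 still passed.

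The classical chains of neutrophils rested in part on 1 array of each genotype. H2-Ab1 was at 8.09, 7.25, 10.72, 8.75 and 7.71 in KO neutrophils 1 to 5, against 7.64, 7.17, 9.90 and 7.74 in WT neutrophils 1 to 4. KO neutrophil 3 and WT neutrophil 3 were the highest of their groups, and they were so in H2-Eb1 too, at 11.20 and 10.31. Without WT neutrophil 3 the excess of H2-Ab1 over microglia was 0.62 and did not pass (adjusted p = 0.251), and without KO neutrophil 3 that in KO cells was 0.88 (adjusted p = 0.0561). H2-Aa and H2-Eb1 kept theirs without both arrays, at 1.01 (adjusted p = 0.0037) and 1.33 (adjusted p = 0.00171) in WT.

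KO neutrophils held more of H2-DMa and H2-DMb1, 2 of the 3 genes of H2-M, than WT neutrophils, while H2-DMb2 and the classical chains did not pass. H2-DMa was at 11.67, 10.27, 11.41, 11.19 and 10.10 in KO neutrophils 1 to 5, against 9.87, 8.62, 9.20 and 7.52 in WT neutrophils 1 to 4. H2-DMb1 was at 12.05, 12.23, 12.44, 11.61 and 9.80 in KO neutrophils, against 10.19, 8.02, 9.75 and 8.92 in WT neutrophils. All KO arrays lay above all WT arrays in H2-DMa, and in H2-DMb1 only KO neutrophil 5 lay within the WT range. H2-DMa rose by 2.13 (SE 0.35, 95% interval 1.40 to 2.85, limma adjusted p = 0.000121), which is 4.36-fold, and H2-DMb1 by 2.41 (SE 0.41, 95% interval 1.57 to 3.25, limma adjusted p = 0.000153), which is 5.31-fold. Each remained called without any single array, at 1.70 to 2.48 for H2-DMa and 2.01 to 2.87 for H2-DMb1. The fit pools the spread over all groups, and neutrophils varied more. The SD of H2-DMa was 0.70 in KO and 0.99 in WT neutrophils, against 0.07 to 0.46 in the other groups. For H2-DMb1 it was 1.06 in KO and 0.96 in WT neutrophils, against 0.18 to 0.64. The intervals above are thus likely too narrow for neutrophils, and the p-values too small. Both genes remained called in a fit to only the neutrophil arrays, without a covariate.

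The other 7 genes did not pass between KO and WT neutrophils. The classical chains differed by 0.16 for H2-Aa (95% interval -0.51 to 0.83, adjusted p = 0.756), 0.39 for H2-Ab1 (-0.60 to 1.39, adjusted p = 0.591) and 0.36 for H2-Eb1 (-0.83 to 1.55, adjusted p = 0.685). These intervals leave room for more than a doubling of H2-Ab1 and H2-Eb1. They rest on the pooled spread too. The SD of H2-Eb1 was 1.76 in KO and 1.48 in WT neutrophils, against 0.19 to 0.55 in the other groups. H2-DMb2 differed by -0.25 (-0.97 to 0.48, adjusted p = 0.648), and the interval of this copy ended below that of H2-DMb1. H2-DMb2 was at 8.31, 8.12, 8.35 and 9.84 in WT neutrophils, with the fourth array alone above 9, against 8.11 to 9.16 in KO neutrophils. H2-Oa (0.25), H2-Ob (-0.08) and Ciita (-0.34, adjusted p = 0.242) averaged under the mark in neutrophils of both genotypes. Thus 2 of 9 genes passed, a count near the 19.9% of all clusters that did, and over all clusters the median difference was -0.13.

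**Figure D3:**
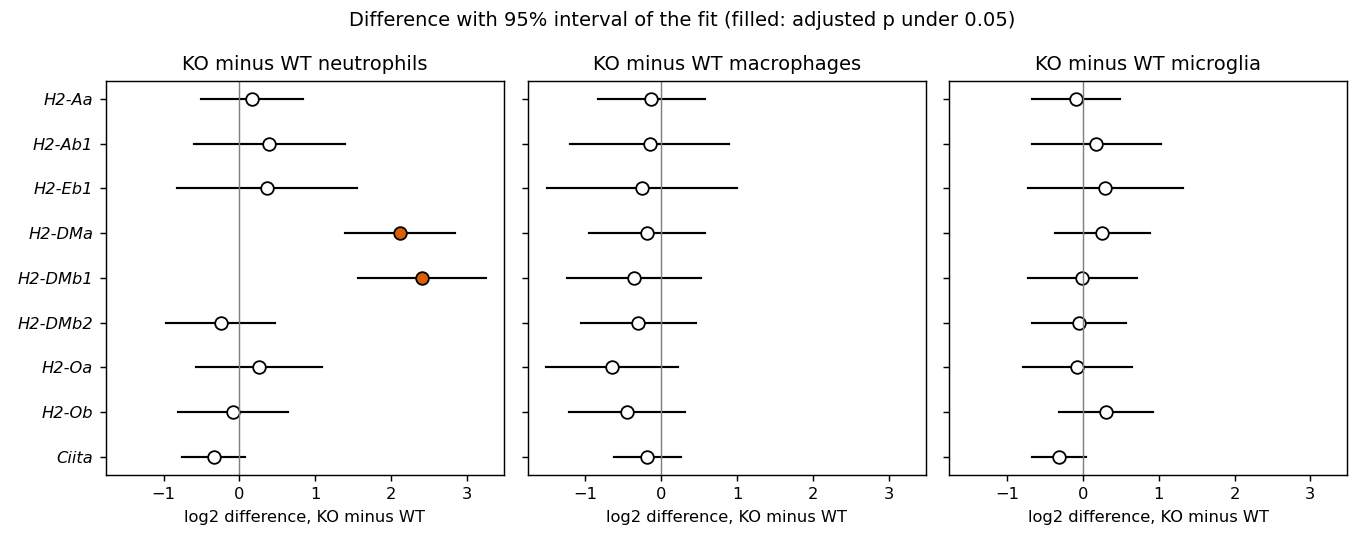
Log2 difference, KO minus WT, of each gene in neutrophils, macrophages and microglia, with the 95% interval of the fit, filled where the adjusted p was under 0.05. H2-DMa (2.13) and H2-DMb1 (2.41) in neutrophils are the 2 filled points, and every other interval includes 0.

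Both calls ended with the median level of the broadly expressed clusters as a covariate. Of 21 alternatives 19 kept each call, centring and quantile normalization among them. The median level of the 2015 broadly expressed clusters was higher in KO than in WT neutrophils, with overlap of KO neutrophil 5 (12.85) and WT neutrophil 1 (12.91). Clusters of this set lying more than 3 log2 units below their mean over macrophage and microglia arrays numbered 5 to 24 per KO array and 20 to 204 per WT array. With that median as a covariate H2-DMa differed by 0.89 (adjusted p = 0.268) and H2-DMb1 by 1.29 (adjusted p = 0.209), and 474 clusters passed in place of 4390. In a fit to the neutrophil arrays alone with the covariate, chosen after the data were seen, they differed by 0.54 (adjusted p = 0.743) and 1.23 (adjusted p = 0.689), and 0 of all clusters passed in limma. The median intensity of all clusters went the other way, at 89.3 to 97.9 in KO and 97.7 to 107.9 in WT neutrophil arrays. H2-DMb1 itself meets the rule of the broadly expressed set. Genotype and the level of this set move together in these 9 arrays and cannot be told apart for the 2 genes.

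**Figure D4:**
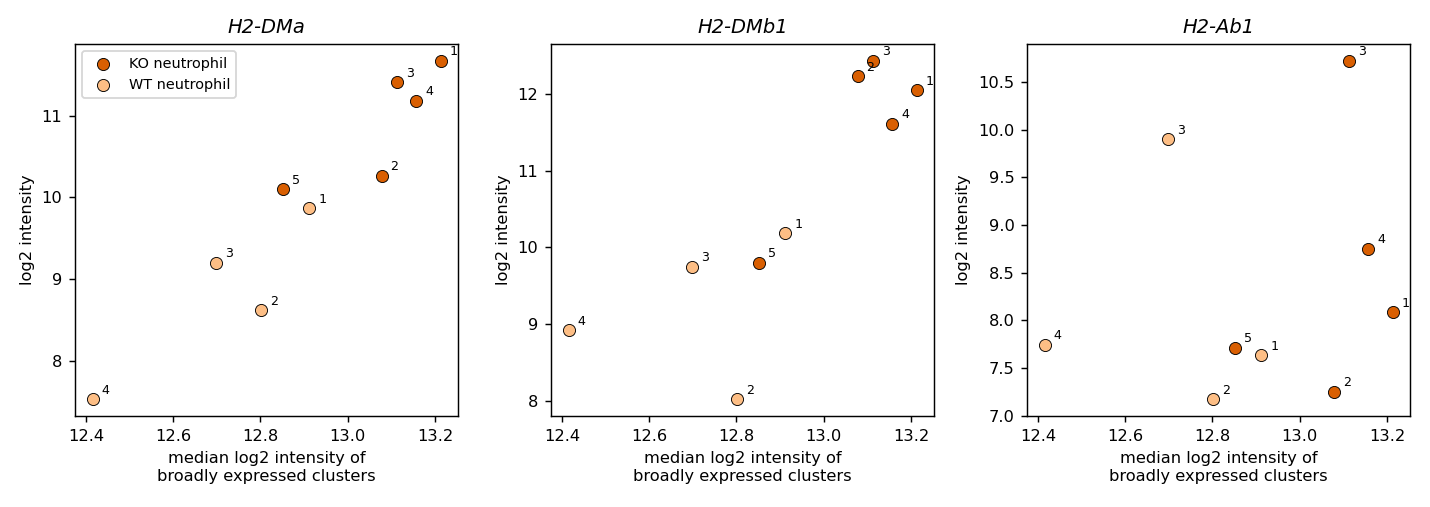
Log2 intensity of H2-DMa, H2-DMb1 and H2-Ab1 in the 9 neutrophil arrays against the median log2 intensity of the 2015 broadly expressed clusters, with the replicate number at each point. The 4 arrays with the highest medians are KO arrays and are the highest in H2-DMa and H2-DMb1, KO neutrophil 5 and WT neutrophil 1 lie close together, and H2-Ab1 is highest in replicate 3 of each genotype.

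Markers of other cells were read in the same arrays, where the calls over all clusters were 10.7% upward and 9.14% downward with KO. Of 10 markers of border-associated macrophages 5 were higher in KO neutrophils and 1, Lyve1, named here after its value was seen, was lower, with a median difference of 1.10 against -0.13 over all clusters. Cbr2 differed by 3.39 (adjusted p = 0.00131), Ms4a7 by 2.08 and Siglec1 by 1.97. The mean over the list was 9.30 to 10.61 in KO and 8.65 to 9.21 in WT neutrophil arrays, without overlap, and 7 of the 10 were above the mark in each group. Of 10 monocyte and macrophage markers 3 were higher and none lower, namely Ccr2 (2.08, adjusted p = 0.0158), Ms4a6c (1.74) and Lyz2 (1.43), but the median of the list was -0.27, below that over all clusters. Its list means were 11.68 to 12.15 in KO and 11.15 to 12.22 in WT arrays, which overlapped. Of 9 measured neutrophil markers Mmp8 (-2.10, adjusted p = 0.00285) and Retnlg (-1.98, adjusted p = 0.0451) were lower and none was higher, with a median of -0.74 and list means of 13.04 to 14.17 in KO and 13.84 to 16.37 in WT arrays. Of 9 measured microglia markers P2ry13 (-1.28) and P2ry12 (-0.97) were lower and none was higher, with a median of 0.02. Both counts, 2 of 9, are near the 19.9% of all clusters called in either direction. The called genes of both lists fell, where 9.14% of all clusters did. The means over the microglia list overlapped, at 8.97 to 10.34 in KO and 9.26 to 9.99 in WT neutrophil arrays. The part of other cells in the H2-M values was not tested.

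The steps before and beside H2-M were read from lists of the pathway. Of 7 measured genes of the antigen processing list 6 rose in KO neutrophils, where 10.7% of all clusters did, with a median of 0.81 against -0.13 over all clusters. Ifi30, a reductase of the endosome that opens disulfide bonds of antigens, rose by 2.02 (SE 0.16, adjusted p = 1.09e-08), Ctsh, an aminopeptidase, by 1.10, Lgmn, an asparagine endopeptidase, by 1.06 and Ctsb, a cathepsin, by 0.73. The 1 that did not pass was Sppl2a, named after its value was seen, which cuts the last remnant of the invariant chain (-0.06, adjusted p = 0.94). Ifi30 averaged 15.54 in KO and 13.52 in WT neutrophils. The list mean was 14.88 to 15.72 in KO and 14.12 to 15.03 in WT neutrophil arrays.

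Among the factors that drive Ciita and its target promoters 1 gene of each list was called, near the 19.9% of all clusters. Of 7 measured class II transcription factors, with a median of -0.09, Nfya, a subunit of the complex that binds the Y box, rose by 0.92 (SE 0.29, adjusted p = 0.023), while Rfx5, a subunit of the complex at the X box, differed by -0.57 (adjusted p = 0.293) and Creb1 by 0.71 (adjusted p = 0.255). Of 6 measured genes on the way from interferon gamma to Ciita, with a median of -0.43 against -0.13 over all clusters, the kinase Jak2 fell by 0.64 (adjusted p = 0.027), Irf1 differed by -0.78 (adjusted p = 0.0645), Ifng by -0.38 and Ifngr2 by 0.29. Of 8 genes of costimulation and surface turnover Cd274, the ligand of PD-1, rose by 0.85 (adjusted p = 0.0201) and Icosl, the ligand of ICOS, fell by 0.90 (adjusted p = 0.0186), a count of 2 of 8 that is also near the 19.9% of all clusters. Marchf8, a ligase that takes class II and other proteins from the surface, differed by 1.36 (adjusted p = 0.0718) and Cd86 by 0.96 (adjusted p = 0.086).

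Of 12 measured genes of class I presentation, the route for peptides from the cytosol, 6 rose in KO neutrophils and none fell, where 10.7% of all clusters rose and 9.14% fell, with a median of 0.65 against -0.13 over all clusters. The chaperone Calr rose by 1.91 (SE 0.24, adjusted p = 4.5e-06), the peptidase Erap1 by 1.30, the oxidoreductase Pdia3 by 1.08 and B2m, the light chain, by 0.60. None of these list counts was refitted with the covariate for broadly expressed clusters.

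**Figure D5:**
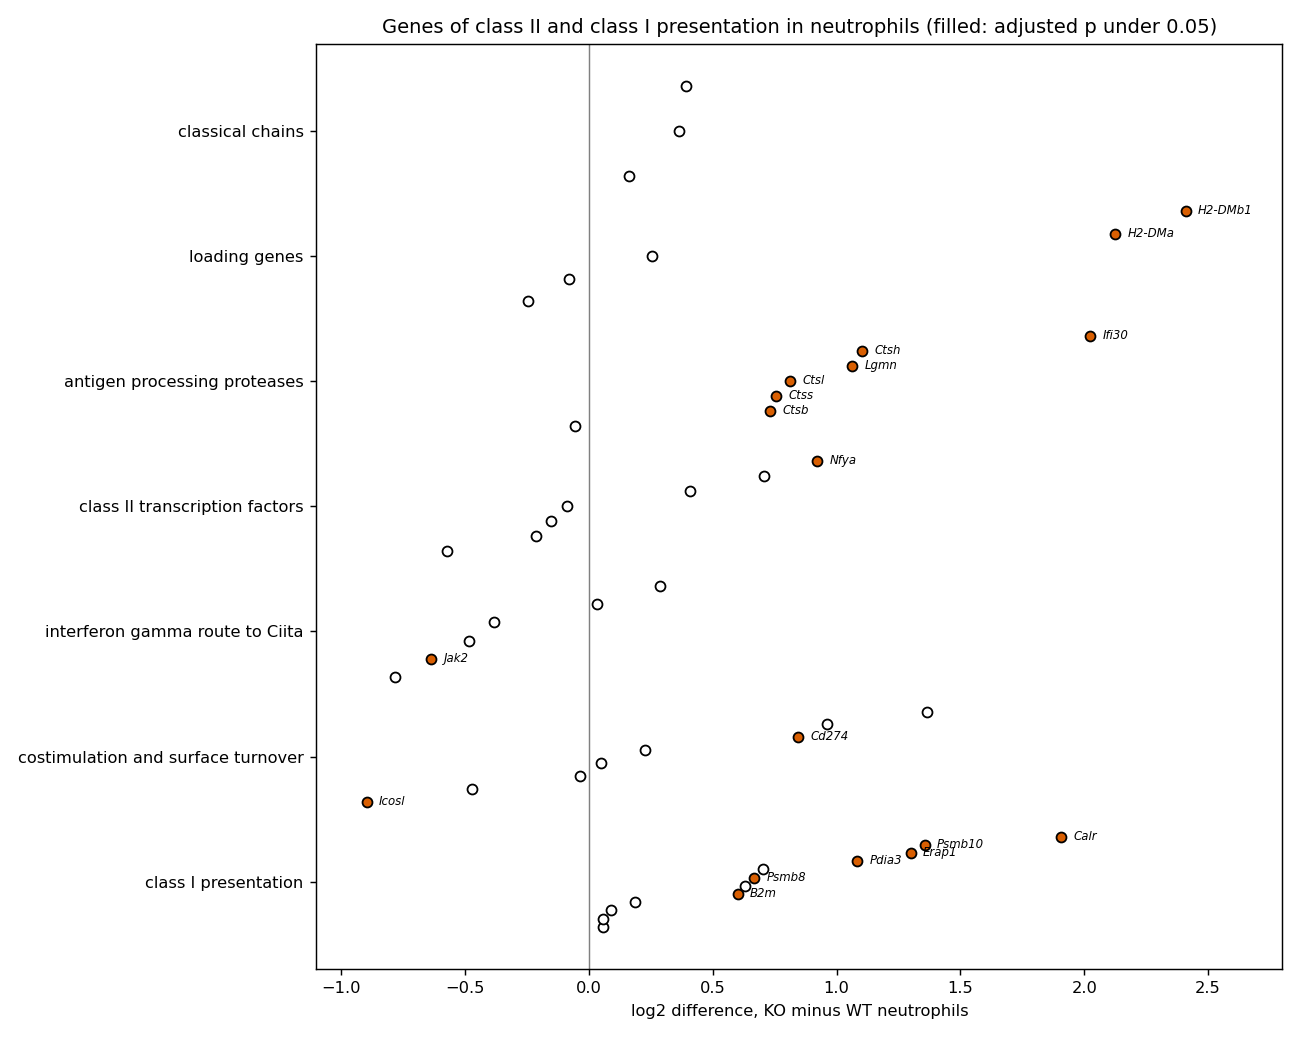
Log2 difference, KO minus WT neutrophils, of each measured gene of 7 lists, filled and named where the adjusted p was under 0.05. H2-DMb1, H2-DMa, Ifi30 and Calr lie farthest right, and the 3 classical chains lie between 0.16 and 0.39.

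No class II gene passed between KO and WT macrophages, all of which held the 9 genes above the mark. H2-Ab1 was at 15.56 to 16.41 with a median of 16.12 in KO macrophages, against 16.23, 15.86 and 16.61 in WT macrophages. H2-DMa was at 14.47 to 15.36 with a median of 14.70 in KO macrophages, against 14.95, 14.88 and 15.01 in WT macrophages. The groups overlapped in all 9 genes, and all 9 differences were negative, between -0.65 for H2-Oa and -0.13 for H2-Aa. For H2-Oa the 95% interval was -1.52 to 0.23, and for H2-Ab1 it was -1.20 to 0.90. In limma 0 of 9 genes passed (adjusted p = 0.998 for each), where 0.00452% of all clusters, 1 cluster, did and 1029 had an unadjusted p under 0.05. The intervals reached below -1 for 6 of the 9 genes, among them H2-Ab1, H2-Eb1 and H2-DMb1.

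No class II gene passed between KO and WT microglia. H2-DMa was at 13.30 to 14.47 with a median of 13.46 in KO microglia, against 12.73 to 13.89 with a median of 13.42 in WT microglia. H2-Aa was at 6.80 to 7.97 in KO and 7.03 to 7.72 in WT microglia. Ciita was below the WT mean in all 6 KO arrays, with a difference of -0.31 (95% interval -0.67 to 0.04), at levels under the mark. In limma 0 of 9 genes passed (adjusted p = 1 for each), where 0% of all clusters did and 646 had an unadjusted p under 0.05.

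The change of H2-DMa and H2-DMb1 with genotype differed between neutrophils and the other cells in direct tests, and that of H2-DMb2 did not pass (0.06 against macrophages, adjusted p = 0.953, and -0.20 against microglia, adjusted p = 0.834). For H2-DMa the change in neutrophils exceeded that in macrophages by 2.31 (SE 0.52, adjusted p = 0.00885) and that in microglia by 1.87 (SE 0.47, adjusted p = 0.0158). For H2-DMb1 it exceeded that in macrophages by 2.76 (SE 0.60, adjusted p = 0.00746) and that in microglia by 2.42 (SE 0.54, adjusted p = 0.00759). These were 2 of 9 genes in each test, where 6.87% of all clusters passed against macrophages and 5.79% against microglia. Against macrophages, 1518 clusters passed, 827 without KO neutrophil 1, 919 without KO neutrophil 4, 2418 without KO neutrophil 5, 2790 without WT neutrophil 1 and 786 without WT macrophage 3. Against microglia, 1280 passed, 724 without KO neutrophil 1, 2118 without KO neutrophil 5 and 2611 without WT neutrophil 1. The 2 genes passed in each of these fits. With the covariate for broadly expressed clusters none of the 4 passed (adjusted p = 0.323 to 0.592). Between macrophages and microglia the change differed for 0 of 9 genes in limma, where 0% of all clusters passed and 761 had an unadjusted p under 0.05.

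Over the 30 arrays, after the group means were taken out, the genes most like H2-DMa were Pld4 (Pearson r = 0.837), Clec4a3 and Enoph1 (0.81 each). Those most like H2-DMb1 were Hat1 (0.841), Cdk4 (0.837) and Snrpa1 (0.827), and those most like H2-Aa were Bicc1 (0.777), Klk4 (0.732) and Cercam (0.662). The arrays share cell type, sort and overall signal, and Klk4 and Cercam averaged 5.10 and 5.41, under the mark.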

How the data were processed

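The deposited table held linear intensity values of 22103 transcript clusters on 30 Clariom mouse arrays, made by the authors with RMA, per the submitters' processing notes, whose version and grouping of arrays are not given in the sources used here. RMA adjusts for background, brings arrays to a common distribution and combines the probes of a cluster, so array-wide differences left after it can move a gene. Log2 was taken with no pseudocount and no filter. Symbols came from the platform annotation (19508 clusters with 1 symbol, 2595 with none). A model with 1 mean per group was fitted with limma 3.58.1 in R 4.3.3 (24 residual degrees of freedom, Benjamini-Hochberg adjustment over all clusters, two-sided). It was also run on simulated data, where a difference of 1 between KO and WT neutrophils was recovered in 46% of 50 changed clusters. The simulation gave all groups the same spread, so it does not test the larger spread of neutrophils. Replicates are biological per the labels, and p-values measure the spread between these arrays, whose number limits precision. That spread is pooled over groups, although neutrophils varied more in the classical chains, H2-DMa and H2-DMb1. No pair of arrays was a duplicate.

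The members and lists were chosen with earlier results of these data known. All members were named, up to 4 genes per pathway list by smallest p (markers likewise), and for H2-Aa, H2-DMa and H2-DMb1 the 3 genes most alike. Genes of a list not measured were left out. Promoters came from RefSeq (GRCm38.p6), and figures were drawn with matplotlib 3.10.9. Alternatives were quantile normalization, centring, array weights, a variance trend, a filter on the dimmest 25% of clusters, the brightest cluster of each gene, only the arrays compared, a replicate block, a covariate for broadly expressed clusters (at or above 11 in every macrophage and microglia array, WT means less than 1 apart) and each array left out. Those with KO and WT neutrophil 3 left out, with the covariate on neutrophil arrays alone and with KO microglia 2 left out for its neutrophil markers were chosen after seeing the data.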

Additional observations from a re-analysis of the deposited data

Results flagged for a closer look

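H2-DMb2 in WT neutrophil 4 was at 9.84, while the other 3 WT neutrophil arrays lay at 8.12 to 8.35. H2-DMb2 in KO microglia 2 was at 11.40 (11.395), while the other 5 KO microglia arrays lay at 10.05 to 10.54, and this array was also the highest of its group in neutrophil markers. Both are single arrays far from their group by Dixon's criterion, which was applied in 45 groups of 4 to 6 arrays and met in 2, where chance alone meets it in about 1 in 20. The causes were not tested.

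The change with genotype differed between cell types, by a test of the difference itself, in 4 cases. For H2-DMa it was 2.31 larger in neutrophils than in macrophages and 1.87 larger than in microglia. For H2-DMb1 it was 2.76 larger in neutrophils than in macrophages and 2.42 larger than in microglia. None of the 4 passed with the median level of broadly expressed clusters as a covariate (adjusted p = 0.323 to 0.592).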

How the results depend on the processing

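Of 108 pairs of a gene and a comparison, 90 kept their direction where called and their side of the threshold under all alternatives, and 18 did not under at least 1. The number of members called changed by more than 1.5 times in 4 of the 12 comparisons, in each with the median level of broadly expressed clusters as a covariate. It was 0 in place of 2 for KO minus WT neutrophils, also 0 with the neutrophil arrays alone, 0 in place of 2 for the change in neutrophils against macrophages, 0 in place of 2 against microglia, and 5 in place of 8 for neutrophils minus microglia in WT, where H2-Aa, H2-Ab1, H2-Eb1 and H2-Ob no longer passed and Ciita turned to -0.95 (adjusted p = 0.0325). The covariate leaves fewer degrees of freedom and moves with genotype, and the cause was not tested. Leaving out each array in turn kept the count at 2 for KO minus WT neutrophils, with H2-DMa at 1.70 to 2.48 and H2-DMb1 at 2.01 to 2.87.

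H2-Ab1 in WT neutrophils minus microglia also lost its call with array weights (adjusted p = 0.08), in a fit to only the arrays compared (0.0516) and without WT microglia 1, 3 or 4 (0.0549 to 0.0558). Ciita in KO neutrophils minus microglia passed with centring (0.49, adjusted p = 0.023), as did H2-DMb1 in KO macrophages minus microglia (0.90, adjusted p = 0.0455).

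Whether replicate numbers pair the arrays was not settled by the correlation of deviations between same-numbered arrays. For KO and WT neutrophils, which cannot share a mouse, it was -0.20 to 0.26, and 1 of 4 pairs was over 0.1. For KO neutrophils and KO microglia it was -0.006 to 0.158, and 2 of 5 pairs were over 0.1. In the other comparisons of cell types no pair was over 0.1. With the replicate block H2-DMa rose by 2.18 (adjusted p = 0.000313) and H2-DMb1 by 2.53 (adjusted p = 0.000246) in KO neutrophils, and no count of members called changed in any comparison. Without KO microglia 2 the H2-Ob call between KO macrophages and microglia was the only member call that changed.

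Over all clusters, KO minus WT neutrophils had 4390 calls, 474 with the covariate, 1084 in a fit to only the arrays compared, 2883 without KO neutrophil 1 and 2884 without WT neutrophil 4. The tests of the difference against macrophages and microglia had 1518 and 1280 calls, 29 and 112 with the covariate, and 631 and 821 in a fit to only the arrays compared, with 994 against macrophages with the replicate block. WT macrophages minus neutrophils had 11402 and 2167 with the covariate, and WT neutrophils minus microglia 12007 and 5310.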

Other observations

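The spaced letters AGNAAC and TGATTGG of the class II promoters stood in 29 promoters of 27 genes, and 4 of these genes are described above. Of 23 others, chosen by sequence alone, 16 were measured. They include H2-Eb2, a class II beta chain gene, which averaged 6.03 in KO and 6.61 in WT macrophages, 5.77 in KO and 5.70 in WT microglia, and 5.86 in KO and 6.01 in WT neutrophils, all under the mark of 6.69. The others are not class II genes, and their levels did not move 1 way. The clock factor Clock was at 13.17 in KO and 11.75 in WT neutrophils, and the lysosomal enzyme Gla at 12.23 in KO and 11.42 in WT neutrophils. Son was at 12.86 in KO and 13.35 in WT neutrophils, and Ercc8 at 6.74 in KO and 6.72 in WT neutrophils. These are examples, and no test of their differences is given. Gzma, a granzyme of T and NK cells, was at 3.67 to 4.33 in KO and 3.92 to 10.45 in WT macrophages. The mean over the T and NK cell markers was 4.42 to 4.62 in KO macrophages, against 6.16, 4.53 and 4.62 in WT macrophages 1 to 3, so WT macrophage 1 stood apart.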
